A study of Mus musculus with 42 samples.

Results

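MEIS binding was compared between mouse cells that expressed the brachial factor HOXC6 and cells that expressed the thoracic factor HOXC9. The members are the MEIS binding events of 1 chromatin immunoprecipitation sequencing (ChIP-seq) library from each line at day 3, as called by the authors. Events on chromosomes 1 to 19 and X were kept and ranked by their own ChIP read count. The iHoxc6 list held 8154 such events and the iHoxc9 list 22703, and the longer list was cut to its 8154 highest events, so that 16308 MEIS events entered of 1087512 events in the 21 lists of the series. At the cut the last iHoxc9 event kept had 60.7 reads and the first left out had 60.6, whereas the iHoxc6 list went down to 19.2 reads. An event was called shared when the other list of equal length held an event within 100 bp, and otherwise iHoxc6-only or iHoxc9-only. Events that were not shared are called events of 1 line below. The name refers to the lists of equal length, and an iHoxc6-only event may have an iHoxc9 event below the cut.

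Both lines, iHoxc6.V5 and iHoxc9.V5, are Ainv15 mouse embryonic stem cells with 1 copy of a V5-tagged Hox transgene under a doxycycline (Dox) promoter at the HPRT locus on chromosome X. They were grown as embryoid bodies with 1 µM retinoic acid and 0.5 µM of the smoothened agonist SAG, which drive cells towards spinal motor neurons. Dox at 3 µg/mL was present for 24 h before collection at day 3, and the precipitating antibody was a goat polyclonal to MEIS1 and MEIS2. Both lines received Dox, each line is 1 engineered line, and the promoter of the transgene is not specific to motor neurons. The HOXC6 and HOXC9 events set beside the MEIS events came from other lines with Flag-tagged transgenes, in differentiations of their own, each list pooled over 2 libraries.

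MEIS proteins are homeodomain factors of the TALE class, which also holds the PBX proteins. In the developing spinal cord and limb they bind DNA with PBX and with HOX proteins and act as cofactors of HOX function. MEIS alone recognises a core spelled TGACAG, PBX with a HOX partner recognises composite sites that begin with TGAT, and the HOX side of such a site differs with the paralog group, with TAAT typical of central factors such as HOXC6 and TTTAT typical of posterior factors such as HOXC9. HOXC6 and HOXC9 give motor neurons brachial and thoracic identities, respectively.

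The 2 MEIS libraries differed in quality. The iHoxc6 library held 12.1 M aligned reads, of which the authors' caller assigned a fraction of 0.077 to signal, and the iHoxc9 library held 9.70 M reads with a fraction of 0.238. Both were called against the same control library of 20.3 M reads. Each list gives the reads of its own line only, so that an event missing from a list has no read count there. With 1 MEIS library for each line there is no spread between differentiations and no test between the lines, and the line cannot be told apart from its library. The 95% intervals below (Wilson for a share, Newcombe for a difference of shares) cover the counting error of sites only.

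A further feature set the iHoxc9 library apart. The highest iHoxc9 events lay on the exons of Unc5c, a netrin receptor gene (chromosome 3, 141465216 to 141834924, GRCm38, which is the same assembly as mm10). Within that gene the cut iHoxc9 list held 37 events, 34 of them on annotated exons, although exons cover 5.18% of the gene, and their reads ran from 63.3 to 10609.2. The iHoxc6 list held 6 events in Unc5c, none on an exon, with 40.3 to 98.1 reads, and the MEIS list of iHoxc10 cells held 26, of which 21 were on exons, with 33.5 to 151.0 reads. Mcf2l, which encodes a guanine nucleotide exchange factor (chromosome 8, 12873806 to 13020905), held 44 events in the cut iHoxc9 list, 40 of them on exons that cover 8.67% of the gene, and no iHoxc6 event. Within 1 kb of the transcription start site (TSS) of Pgk1, which encodes the glycolytic enzyme phosphoglycerate kinase, the iHoxc9 list held 4 events of 1175.2 to 10071.0 reads, against 1 of 30.6 reads in the iHoxc6 list. These places took 82 of the 4336 iHoxc9-only events and 4 of the 4447 iHoxc6-only events, and all 10 of the highest iHoxc9-only events. Left out, they moved the shares of shared events to 45.7% and 47.1%, the HOXC9 difference below to 28.4 points and the TTTAT difference to 27.1 points, each within its own interval. Their cause was not tested.

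8 events show the sequences that the classes hold. Each is the plus strand of GRCm38 for 50 bp to either side of the event, taken from the RefSeq genome, with matches to TGACAG and to the cores TTTAT and TAAT on either strand in capitals. They were picked by class, motif, HOX events and rank, and the last pair for its place in the Hox clusters. The shared events near Gpr84 and in an intron of Foxp1 have HOXC6 and HOXC9 events and hold TGACAG or TGATTTAT, respectively. They are among the highest iHoxc6 events of that kind. The event in an intron of Cmtm7 is the highest iHoxc6-only event with TGACAG and with no iHoxc9 event in the full list, and the event 305 kb from Adgrl2 is another with a HOXC6 event alone and no iHoxc9 event. The events in an intron of Srgap3 and 523 kb from Stpg2 are among the highest iHoxc9-only events with TGATTTAT and a HOXC9 event alone. The last pair lies at the promoters of Hoxa2 (shared) and Hoxd8 (iHoxc9-only).
Gpr84, shared, chr15:103305333-103305433: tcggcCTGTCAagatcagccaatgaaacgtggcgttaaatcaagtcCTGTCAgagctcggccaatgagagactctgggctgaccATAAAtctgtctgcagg
Foxp1, shared, chr6:99190103-99190203: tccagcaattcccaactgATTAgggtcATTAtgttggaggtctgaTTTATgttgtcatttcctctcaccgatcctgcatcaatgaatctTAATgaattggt
Cmtm7, iHoxc6-only, chr9:114799645-114799745: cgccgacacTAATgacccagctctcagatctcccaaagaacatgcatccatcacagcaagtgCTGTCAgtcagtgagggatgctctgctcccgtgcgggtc
Adgrl2, iHoxc6-only, chr3:149295333-149295433: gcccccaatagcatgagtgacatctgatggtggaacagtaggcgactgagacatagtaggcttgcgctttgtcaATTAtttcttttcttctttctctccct
Srgap3, iHoxc9-only, chr6:112842559-112842659: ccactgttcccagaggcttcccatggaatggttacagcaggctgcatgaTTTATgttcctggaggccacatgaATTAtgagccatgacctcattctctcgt
Stpg2, iHoxc9-only, chr3:139728976-139729076: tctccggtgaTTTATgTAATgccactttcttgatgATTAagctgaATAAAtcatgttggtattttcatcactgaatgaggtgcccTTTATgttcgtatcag
Hoxa2, shared, chr6:52165188-52165288: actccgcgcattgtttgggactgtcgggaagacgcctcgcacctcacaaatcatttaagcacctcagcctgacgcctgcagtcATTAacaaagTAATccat
Hoxd8, iHoxc9-only, chr2:74705924-74706024: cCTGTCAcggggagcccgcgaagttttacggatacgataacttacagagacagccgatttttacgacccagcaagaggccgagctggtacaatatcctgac

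At the Gpr84 event the iHoxc6 library had 1657.7 reads (rank 6) and the iHoxc9 library 5597.5 reads (rank 11), and the window holds repeated TGACAG on the minus strand and a TTTAT core. The Foxp1 event had 577.8 reads in iHoxc6 and 1049.9 in iHoxc9 cells, so both of these events were high in both lines. The Cmtm7 event had 217.8 reads in iHoxc6 cells and its nearest iHoxc9 event was 82668 bp away, and the Adgrl2 event had 155.3 reads with the nearest iHoxc9 event 81103 bp away. The iHoxc6-only examples were lower than the shared ones. They were picked for having no iHoxc9 event in the full list, so their distances do not describe the class. Of all iHoxc6-only events, 50.1% had an event of that list within 100 bp. The Srgap3 event had 450.1 reads in iHoxc9 cells and the Stpg2 event 396.1, with the nearest iHoxc6 events at 27863 and 361 bp. The Hoxa2 promoter event had 292.5 reads in iHoxc6 and 386.8 in iHoxc9 cells, and the Hoxd8 promoter event had 249.2 reads in iHoxc9 cells with no iHoxc6 event within 27129 bp.

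The 2 MEIS lists of equal length overlapped in part. Of the iHoxc6 events, 3707 of 8154 (45.5%, 44.4 to 46.5) had an iHoxc9 event within 100 bp, and of the iHoxc9 events 3818 of 8154 (46.8%, 45.7 to 47.9) had an iHoxc6 event. All positions within 100 bp of an event of the cut iHoxc9 list make up 0.0603% of the genome. The shared positions coincided closely, since 94.0% of the shared iHoxc6 events had the identical position in the iHoxc9 list, and the authors' caller aligns event positions between conditions. Between the lists of equal length, 80.4% of iHoxc6-only and 78.1% of iHoxc9-only events lay more than 10 kb from any event of the other list. Against the full iHoxc9 list, however, 50.1% of the iHoxc6-only events had an event within 100 bp.

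Sharing fell with rank in both lists. Among the highest 10% of iHoxc6 events 90.8% were shared, and among the lowest 10% 18.2% were. The iHoxc9 events went from 72.9% to 27.9% over the same steps. Many iHoxc6-only events did have an iHoxc9 event below the cut: 2226 of 4447 (50.1%, 48.6 to 51.5) matched an event of the full iHoxc9 list, so that 2221 iHoxc6-only events had no iHoxc9 event at all, and 5933 of 8154 iHoxc6 events (72.8%) were found in the full iHoxc9 list. The iHoxc6 list was not cut, so none of the 4336 iHoxc9-only events had an iHoxc6 event within 100 bp.

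**Figure D1:**
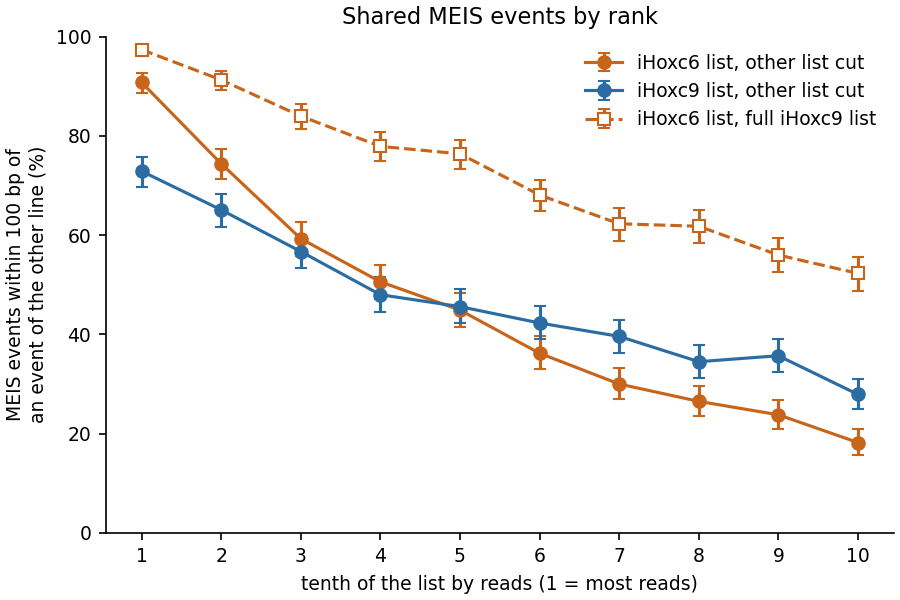
Percent of MEIS events of each line (y axis) with an event of the other line within 100 bp, in 10 bins of the list in order of ChIP reads (x axis, 1 holds the events with most reads), with 95% Wilson intervals as bars. Solid lines use the lists of equal length and fall from 90.8% to 18.2% for iHoxc6 and from 72.9% to 27.9% for iHoxc9, and the dashed line, for iHoxc6 events against the full iHoxc9 list, falls from 97.4% to 52.3%.

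Shared events had more reads than events of 1 line in both libraries. The lists were ranked and cut by these same reads, so this order is not independent of how the classes were made. In the iHoxc6 library the median was 68.8 reads at shared and 40.9 reads at iHoxc6-only events, which is 5.67 and 3.37 RPM (event reads divided by the library's reads in M). In the iHoxc9 library the medians were 126 and 92.5 reads, or 13.0 and 9.53 RPM. The shared events of 1 library ran between percentiles 10 and 90 from 2.84 to 15.2 RPM in iHoxc6 and from 7.17 to 34.4 in iHoxc9, so that the bulk of the iHoxc9 values lay higher. The cut bears on this gap and on the ratio that follows. It kept only iHoxc9 events of 60.7 reads or more, whereas the iHoxc6 list went down to 19.2 reads. Across the 3707 shared pairs the median log2 ratio of iHoxc9 to iHoxc6 RPM was 1.20, and the ranks of the pairs were only loosely alike (Spearman's rank correlation 0.36 across sites, which are not replicates and share the 2 libraries).

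**Figure D2:**
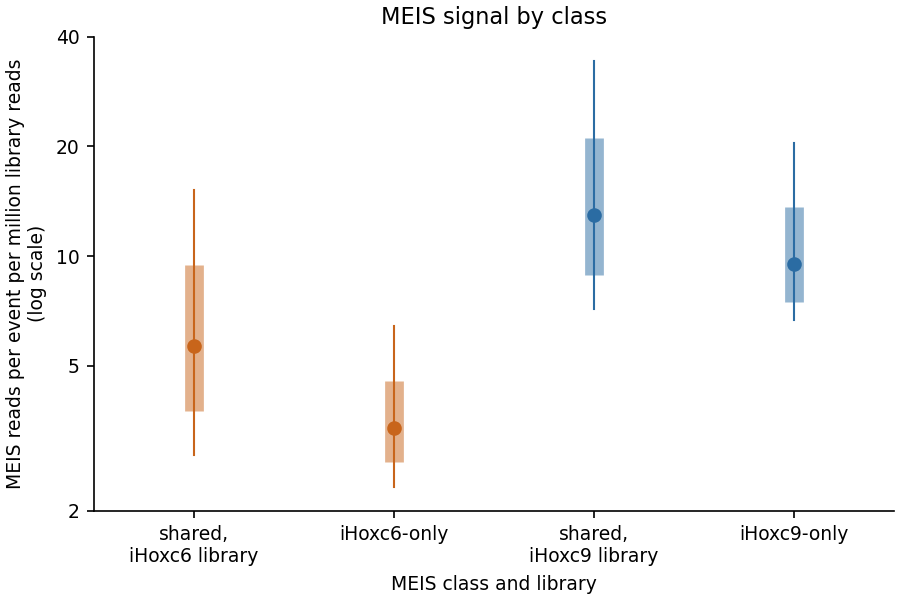
MEIS RPM at an event (y axis, log scale) for shared and for iHoxc6-only or iHoxc9-only events in each library. Points are medians over events, thick bars span percentiles 25 to 75 and thin lines percentiles 10 to 90. The medians are 5.67, 3.37, 13.0 and 9.53 from left to right. The lists behind the classes were ranked by event reads, and only the iHoxc9 list was cut by them.

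Between the iHoxc6-only and iHoxc9-only classes, each HOX factor was the more frequent at the MEIS events of the line that expressed it. The shared events had the highest shares of both factors (84.8% for HOXC9 and 58.6% for HOXC6). Any day 3 HOXC9 event lay within 100 bp of 3539 of 4336 iHoxc9-only events (81.6%, 80.4 to 82.7) and of 2427 of 4447 iHoxc6-only events (54.6%, 53.1 to 56.0), a difference of 27.0 points (25.2 to 28.9). Any HOXC6 event lay at 2249 iHoxc6-only events (50.6%, 49.1 to 52.0) and at 678 iHoxc9-only events (15.6%, 14.6 to 16.7), a difference of 34.9 points (33.1 to 36.7). Within the iHoxc6-only class the share with HOXC9 (54.6%) was above the share with HOXC6 (50.6%). Over all 16308 MEIS events of both lists HOXC9 was found at 75.7% and HOXC6 at 45.1%, and positions within 100 bp of such an event make up 0.556% and 0.135% of the genome. The HOXC9 list held 74067 events and the HOXC6 list 17898, and with the HOXC9 list cut to the length of the HOXC6 list the HOXC9 difference was 26.2 points.

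The split was sharpest where 1 HOX factor had a called event without the other, and a factor without a called event may lie below the calling threshold. The day 3 HOXC6 libraries had signal fractions of 0.08 and 0.07, against 0.174 and 0.398 for HOXC9. In the day 4 list, HOXC6 events lay at 63.5% of iHoxc9-only and 82.8% of iHoxc6-only events, against 15.6% and 50.6% at day 3. Of the MEIS events that were not shared and had a HOXC6 event alone, 505 were iHoxc6-only and 14 iHoxc9-only (2.70%, 1.61 to 4.48). Of those with a HOXC9 event alone, 683 were iHoxc6-only and 2875 iHoxc9-only (80.8%, 79.5 to 82.1). Where both HOX factors had an event, 1744 MEIS events were iHoxc6-only and 664 iHoxc9-only. Shared events mostly carried both factors (2120 of 3707, 57.2%) or HOXC9 alone (1022, 27.6%), and 512 (13.8%) had neither. Among iHoxc6-only events 1515 (34.1%) had neither factor, against 783 (18.1%) of the iHoxc9-only events.

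**Figure D3:**
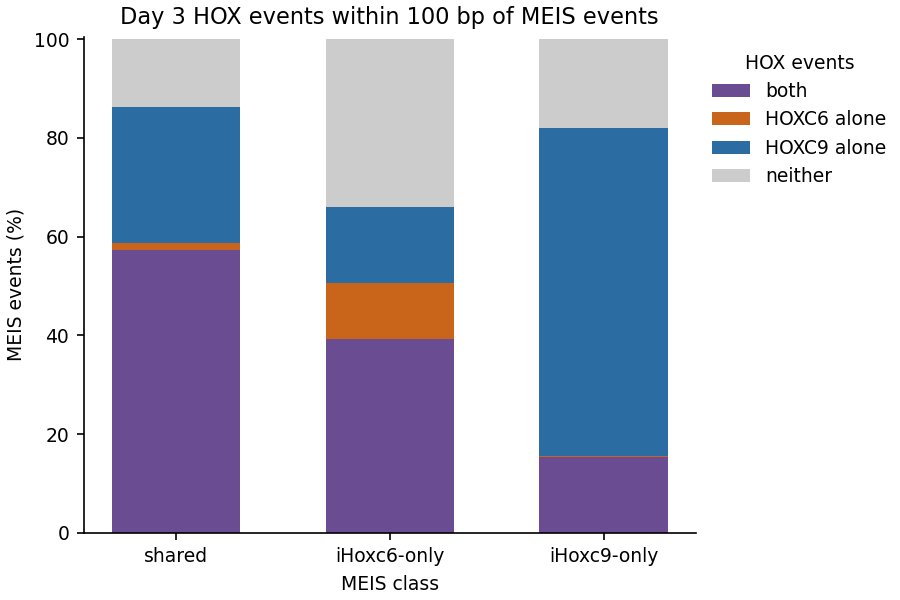
Percent of shared, iHoxc6-only and iHoxc9-only MEIS events (stacked bars, y axis) with day 3 events of both HOX factors, HOXC6 alone, HOXC9 alone or neither within 100 bp. HOXC9 alone takes 66.3% of the iHoxc9-only bar, 15.4% of the iHoxc6-only bar and 27.6% of the shared bar, and HOXC6 alone takes 11.4%, in the iHoxc6-only bar, against 0.323% in the iHoxc9-only bar.

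These differences were present at every level of MEIS signal. Among events of ranks 1 to 2718 the HOXC9 difference was 27.6 points (23.6 to 31.5) and the HOXC6 difference 47.3 points (43.0 to 51.3). Among ranks 5437 to 8154 they were 24.4 (21.4 to 27.3) and 30.4 points (27.7 to 33.1). Among the 2221 iHoxc6-only events with no event in the full iHoxc9 list, 1190 (53.6%) had a HOXC6 event and 1056 (47.5%) a HOXC9 event. At the 2249 iHoxc6-only events with a HOXC6 event within 100 bp, the median distance to it was 28 bp. At the 3539 iHoxc9-only events with a HOXC9 event within 100 bp, it was 21 bp. Events without such a HOX event were left out, so these medians are bounded by that limit and do not describe the whole classes. With the day 4 lists of the same factors, from cells with Dox for 1 more day, the HOXC9 difference was 35.2 points and the HOXC6 difference 19.3 points.

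HOX factors that neither line expressed from its transgene gave the same order by paralog group. Events of HOXC8, a central factor like HOXC6, lay at 67.3% of iHoxc6-only and 44.6% of iHoxc9-only MEIS events, a difference of 22.7 points (20.7 to 24.7). Events of HOXC10, a posterior factor like HOXC9, lay at 45.2% and 59.1%, a difference of 14.0 points (11.9 to 16.0) in the other direction. MEIS itself in iHoxc10 cells had an event at 93.2% of shared, 55.3% of iHoxc6-only and 48.1% of iHoxc9-only events. The order of the last pair depends on the cut. Of the 2221 iHoxc6-only events with no event in the full iHoxc9 list, 783 (35.3%) had an iHoxc10 MEIS event, below the iHoxc9-only share. The PBX list of iHoxc9 cells at day 4 held 1164 events and met 32 shared, 2 iHoxc6-only and 9 iHoxc9-only events, too few to compare.

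Seen from the HOX side, each factor's own sites carried more MEIS in the line that expressed it. Of the 10000 highest HOXC6 events, 3412 (34.1%) had an iHoxc6 MEIS event and 2102 an iHoxc9 MEIS event of the cut list. Of the 10000 highest HOXC9 events, 2182 (21.8%) and 3010 (30.1%) did. The gap was widest at sites of 1 factor: of 1989 HOXC6 events without HOXC9, 334 (16.8%, 15.2 to 18.5) had MEIS in iHoxc6 and 42 (2.11%, 1.57 to 2.84) in iHoxc9 cells, and of 5573 HOXC9 events without HOXC6, 280 (5.02%, 4.48 to 5.63) and 1161 (20.8%, 19.8 to 21.9) did. Of the 10000 highest HOXC9 events, 4427 had a HOXC6 event, and of these 43.0% had MEIS in iHoxc6 and 41.8% in iHoxc9 cells. This near equality depends on the cut, since the share in the full iHoxc9 list was 62.8% (61.3 to 64.2). Against the full iHoxc9 MEIS list the iHoxc9 shares were 37.4% of the HOXC6 events and 48.6% of the HOXC9 events, so the order at HOXC6 events depends on the equal list length.

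The ratio of MEIS reads at shared events leaned the same way. At shared events with HOXC9 alone the median log2 ratio of iHoxc9 to iHoxc6 RPM was 1.45, at those with both factors 1.14, at those with neither 0.93 and at the 53 with HOXC6 alone 0.56. Relative to the median of 1.20 over all pairs, 243 of the 1022 pairs with HOXC9 alone (23.8%) were more than 1 log2 unit higher in iHoxc9 and 73 (7.14%) more than 1 unit lower. Of the 53 pairs with HOXC6 alone, 3 were higher by that margin and 20 lower.

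The DNA under the events differed in its posterior Hox core. TTTAT, on either strand within 50 bp, was present at 2553 of 4336 iHoxc9-only events (58.9%, 57.4 to 60.3), 1448 of 4447 iHoxc6-only events (32.6%, 31.2 to 34.0) and 45.2% of shared events. The difference between the iHoxc9-only and iHoxc6-only classes was 26.3 points (24.3 to 28.3). Of all windows of the same length on chromosomes 1 to 19 and X 33.8% hold TTTAT, and windows 1 kb to either side of the events held it at 31.6% for iHoxc9-only and 31.5% for iHoxc6-only events. The iHoxc6-only share over the whole 50 bp to either side was near that of the sequence around it, while its matches were more frequent in the central 20 bp. The composite TGATTTAT of PBX with a posterior Hox factor contains TTTAT. It was present at 14.1% of iHoxc9-only, 3.37% of iHoxc6-only (10.7 points, 9.56 to 11.9) and 10.7% of shared events, against 0.605% of all windows.

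Other cores divided the classes less or in the other direction. TAAT was present at 64.3% of iHoxc6-only and 65.0% of iHoxc9-only events, a difference of -0.746 points (-2.74 to 1.25), and at 52.6% of all windows. The MEIS core TGACAG was present at 25.1% of iHoxc6-only, 19.4% of iHoxc9-only and 26.0% of shared events, against 6.40% of all windows, and the iHoxc6-only share exceeded the iHoxc9-only share by 5.72 points (3.99 to 7.45). TGATTGAT, the composite of PBX with an anterior Hox factor, was present at 7.11% of iHoxc6-only, 3.83% of iHoxc9-only and 9.47% of shared events (0.394% of all windows). TGATTAAT, with a central Hox core, was present at 2.77% and 2.86% of iHoxc6-only and iHoxc9-only events, a difference within its interval (-0.792 to 0.601 points). TGATTGAC, the composite of PBX with MEIS, was present at 1.80% and 1.18%, and at 0.225% of all windows.

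The TTTAT difference was also present between events with the same HOX factors. Where both HOXC6 and HOXC9 had an event, 63.3% of iHoxc9-only and 38.0% of iHoxc6-only MEIS events held TTTAT, and where HOXC9 alone had one, 63.1% and 38.2% did. Where neither had one, 39.8% of iHoxc9-only and 24.7% of iHoxc6-only events held it, 15.2 points apart (11.1 to 19.2). TGATTGAT was present at 19.3% of shared and 12.7% of iHoxc6-only events with neither factor, against 4.91% and 2.69% of those with both. TTTAT matches were most frequent at the event position in each class. In the 20 bp around the event position TTTAT had a match at 28.2% of iHoxc9-only, 18.6% of shared and 12.9% of iHoxc6-only events, whereas in the 20 bp centred 300 bp upstream 436 of 4336 iHoxc9-only, 288 of 3707 shared and 347 of 4447 iHoxc6-only events had one. In the 20 bp centred 300 bp downstream the shares were 8.99%, 7.85% and 8.77%, respectively.

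**Figure D4:**
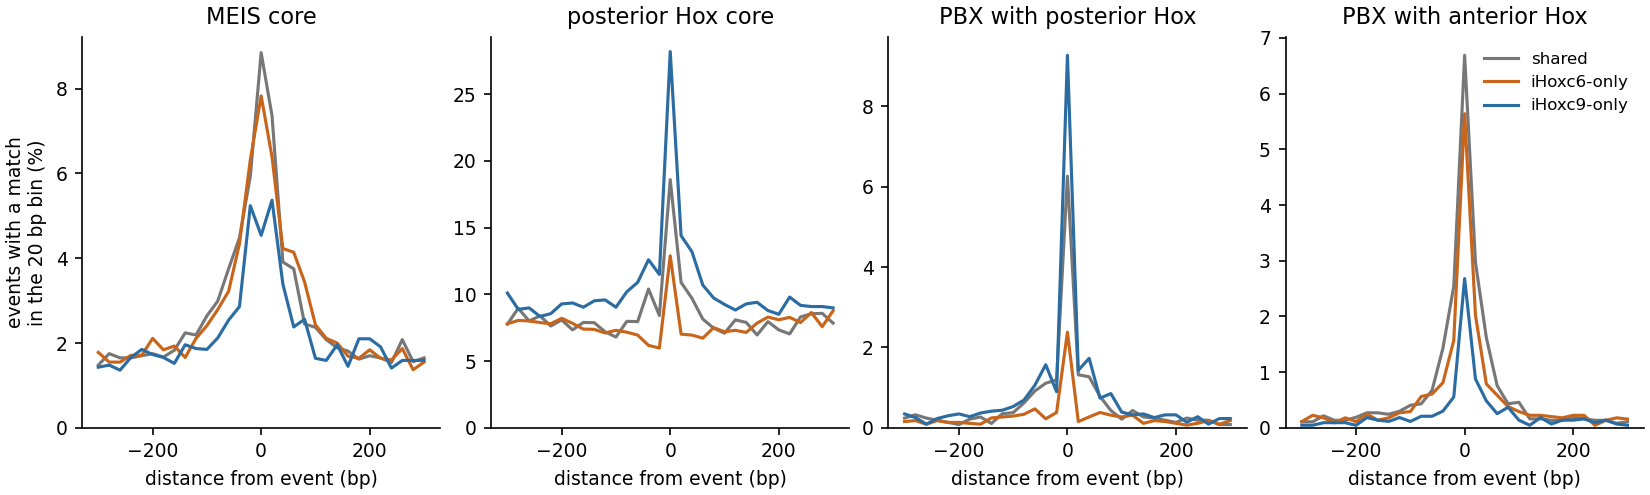
Percent of events with a motif match on either strand whose middle falls in each 20 bp bin (y axis) by distance from the event (x axis, bp on the plus strand), for the MEIS core TGACAG, the posterior Hox core TTTAT and the composites TGATTTAT and TGATTGAT, with 1 line for each MEIS class. The motifs are most frequent at or beside the event, with TGACAG in the iHoxc9-only class lower in the central bin (4.54%) than in its neighbours (5.24% and 5.37%). TTTAT and TGATTTAT are highest in the iHoxc9-only class (28.2% and 9.27% in the central bin) and lowest in the iHoxc6-only class (12.9% and 2.38%), and TGACAG and TGATTGAT are lowest in the iHoxc9-only class (4.54% and 2.68%).

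Most MEIS events lay more than 50 kb from a TSS in every class (53.7% of shared, 56.4% of iHoxc6-only and 58.7% of iHoxc9-only events). Of all 16308 events 4.22% lay within 1 kb of a protein-coding TSS, where 2.43% of the genome lies. The share was 4.86% (216 of 4447, 4.26 to 5.53) for iHoxc6-only, 3.27% (142 of 4336, 2.79 to 3.85) for iHoxc9-only and 4.45% (165 of 3707) for shared events. The iHoxc6-only share exceeded the iHoxc9-only share by 1.58 points (0.757 to 2.41), and by 2.01 points without the events in Unc5c, Mcf2l and at Pgk1. This difference did not hold under every choice: it was 0.210 points (-1.32 to 1.88) among ranks 1 to 2718, 0.327 points (-0.576 to 1.32) when both classes were set against full lists, and -0.867 points (-1.64 to 0.044) with uncut lists. The median distance to a TSS was 65.5 kb for iHoxc6-only, 72.7 kb for iHoxc9-only and 58.1 kb for shared events, and 51.8%, 49.0% and 49.8% of events were intergenic.

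At promoters the shares with a HOX event were lower in number than in the class as a whole, which was not tested. Of the 216 iHoxc6-only promoter events 66 (30.6%) had a HOXC6 event, and of the 142 iHoxc9-only promoter events 73 (51.4%) had a HOXC9 event, against 50.6% and 81.6% of the whole classes. Among the highest shared promoter events were those of the Hox genes Hoxa2, Hoxa5, Hoxc4 and Hoxc5, and of Meis1 itself. The Hoxa5 promoter event had 579.7 reads in iHoxc9 cells. The Meis1 event, 35 bp from a TSS, had 219.5 reads in iHoxc6 and 151.6 in iHoxc9 cells. Prdm13, a regulator of dorsal interneuron fate, had 280.7 reads in iHoxc6 cells, 128 bp from its TSS. Jarid2, a partner of Polycomb repressive complex 2, had 195.0.

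The highest iHoxc6-only promoter events were low beside these, from 128.8 reads at Cfap58, a gene for a cilia and flagella protein, down to 76.3 reads at Elavl4, which encodes a neuronal RNA-binding protein. Chn1, whose product alpha-chimaerin signals to Rac in axon guidance, had 83.8 reads 37 bp from its TSS, and Prr5l, which encodes a partner of the mTORC2 complex, had 96.4. Of the 10 highest iHoxc6-only promoter events, 6 had an iHoxc9 event at the same position below the cut. The 10 highest iHoxc9-only promoter events were at Pgk1, Unc5c, Mcf2l and, with 440.1 reads, Aasdh, and the first 3 genes held 23 of the 142. Outside the first 3 genes, Hox genes stood among the highest: Hoxd8 with 249.2 reads, Hoxd4 with 200.6 reads 26 bp from its TSS, and Hoxb3 with 181.0 reads. Nf2, which encodes the tumour suppressor merlin, had 189.8 reads. All 10 of these promoter events outside the 3 genes had a HOXC9 event within 100 bp.

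The highest events of the classes also differed. The 10 highest shared iHoxc6 events were led by an intergenic event 30.7 kb from Mcfd2, a gene of cargo transport between endoplasmic reticulum and Golgi, with 2868.9 reads in iHoxc6 and 1780.2 in iHoxc9 cells and with neither HOX factor. They included intronic events of the teashirt zinc finger genes Tshz2 (1326.1 reads) and Tshz1 (882.8 reads), and an event 85.4 kb from Npr3, the natriuretic peptide clearance receptor, with 1755.9 reads in iHoxc6 and 1353.1 in iHoxc9 cells. All 10 were in the MEIS list of iHoxc10 cells at the same place.

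The iHoxc6-only events were weaker, from 448.6 reads 18.0 kb from Gm853 to 217.8 reads in Cmtm7, and 8 of the highest 10 had an event of the full iHoxc9 list within 100 bp, so that these lay below the cut and were not absent from the iHoxc9 list. The exceptions were Zfat, with 280.0 reads and the nearest iHoxc9 event at 12075 bp, and Cmtm7. An event 249 kb from Fgf9, a growth factor gene, had 411.1 reads. All 10 of the highest iHoxc9-only events lay in Unc5c exons, with 5469.0 to 10609.2 reads and no HOX event. Leaving out Unc5c, Mcf2l and Pgk1, the highest were intergenic or intronic, from 1417.8 reads 243 kb from Apob to 646.8 reads 57.7 kb from Gm11361, and all 10 had a HOXC9 event, 8 of them with HOXC9 alone.

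Several genes collected many events of 1 class. Assigned by the nearest TSS, Zfp608, a zinc finger gene, led the iHoxc6-only class with 23 events, against 10 iHoxc9-only and 15 shared. Celf4, which encodes a neuronal RNA-binding protein, had 16, 7 and 3, Meis1 had 12, 6 and 10, and Auts2 had 11, 14 and 16. Mcf2l led the iHoxc9-only class with 44 events and no other, followed by Bmpr1b, a BMP receptor gene next to Unc5c, with 30, 2 iHoxc6-only and 2 shared, so that Unc5c exon events are assigned to it by the nearest TSS. Auts2 with 14, Gm10295 with 13 and Lrmda with 13 came next.

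Genes of the Hox system and of motor neuron development were then taken from 10 lists of 225 genes, with events counted within 50 kb of the gene body. Any event was present at 161 of the 225 (71.6%), against 30.8% of all 21728 protein-coding genes. The window grows with the length of the gene, and the windows of neighbouring Hox genes overlap. The genes were not matched for either, so the gap is not a measure of enrichment. Of 141 listed genes with an iHoxc6-only or iHoxc9-only event, 78 (55.3%, 47.1 to 63.3) had more iHoxc6-only and 45 (31.9%) more iHoxc9-only events. Over all protein-coding genes with such an event these shares were 50.3% and 39.9%, and the first lies inside the interval of the lists. The share that leaned to iHoxc6 changed with the list length: it was 28.7% when events below the cut counted, 29.9% among ranks 1 to 2718 and 46.5% with the 5000 highest events of each line.

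The 4 Hox clusters held many shared events, and their counts of iHoxc6-only and iHoxc9-only events were small. Any event lay near 37 of the 39 Hox genes, whose windows overlap, so events were counted once for each cluster with 50 kb to either side. HoxA (chromosome 6, 52155590 to 52260880) had 19 shared, 9 iHoxc6-only and 1 iHoxc9-only events, and HoxC had 8, 3 and 1. HoxB had 8, 7 and 8, and HoxD (chromosome 2, 74668310 to 74765142) had 6, 2 and 5. Along HoxA the counts were highest at the anterior genes, with 19 shared, 9 iHoxc6-only and 1 iHoxc9-only events near Hoxa2 and Hoxa3. At the posterior end of HoxD the iHoxc9-only events led: Hoxd11 had 1 shared, 1 iHoxc6-only and 4 iHoxc9-only events, and Hoxd12 had 4 iHoxc9-only events and no other. Below the cut the full iHoxc9 list held an event at 5 of the 9 iHoxc6-only events of HoxA, 5 of 7 of HoxB, 3 of 3 of HoxC and 1 of 2 of HoxD. Over all Hox genes 58.3% (42.2 to 72.9) of the events of 1 line were iHoxc6-only, and the interval holds the 50.6% over all such events.

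The TALE cofactor genes, which encode MEIS, PBX and related proteins, held 23 shared, 26 iHoxc6-only and 16 iHoxc9-only events. Of 7 such genes with an event of 1 line, 5 leaned to iHoxc6 and 1 to iHoxc9. Meis2 had 7 shared, 9 iHoxc6-only and 5 iHoxc9-only events, and Meis1 had 6, 6 and 1. Pbx3 was the member with the other lean, with 4 shared, 0 iHoxc6-only and 3 iHoxc9-only events. Of all events of 1 line 50.6% were iHoxc6-only, which lies within the 95% interval of this list (61.9%).

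Motor neuron genes held events of all classes. The motor neuron identity list (27 shared, 26 iHoxc6-only and 15 iHoxc9-only distinct events) was led by Ebf1, an early B cell factor gene that acts in neuronal differentiation, with 9, 5 and 5. Mnx1, the motor neuron determinant HB9, had 2, 1 and 1, and Lhx3, a LIM-homeodomain gene, had 2, 1 and 0. Neurod1, a proneural gene, had 3 iHoxc6-only events and no other in the lists of equal length, while the full iHoxc9 list held 4 events there. Ebf3 leaned the other way, with 5 shared, 1 iHoxc6-only and 3 iHoxc9-only events. The motor column and pool list held 44 shared, 23 iHoxc6-only and 30 iHoxc9-only events. The iHoxc6-only share of the events of 1 line was 63.4% (48.1 to 76.4) for motor neuron identity and 43.4% (31.0 to 56.7) for motor columns and pools, and both intervals hold the 50.6% over all such events. Foxp1, which defines the lateral motor column at limb levels, had 8 shared, 1 iHoxc6-only and 8 iHoxc9-only events, and Mecom, a marker of medial motor column neurons, had 5, 4 and 9. Aldh1a2, the retinoic acid synthesis gene of the lateral motor column, had 1, 2 and 1, and Tshz3 had 6 shared events and no other.

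For progenitor, retinoic acid, caudal and other neural genes the counts were small, and the 50.6% over all events of 1 line lay within the interval of each list. Progenitor patterning genes held 21 shared, 14 iHoxc6-only and 6 iHoxc9-only events, with 3 shared, 0 and 1 at Olig2, the motor neuron progenitor factor, and 1, 2 and 0 at Ptch1 and at Gli2, of the Hedgehog pathway. Retinoic acid pathway genes held 20, 10 and 8, with 6, 3 and 3 at the receptor gene Rarb and 4, 0 and 1 at Crabp1, a retinoic acid binding protein gene. Caudal axis genes held 3, 4 and 2 events, with 2 iHoxc6-only events at Nkx1-2, where the full iHoxc9 list also held 2 events. Genes of other neural types held 7, 8 and 5, with 2, 2 and 0 at Pax8 and with 2 iHoxc9-only events at Evx2, beside HoxD. Genes of other germ layers and of pluripotency held 5, 6 and 0, of which Esrrb, a pluripotency gene, had 4, 2 and 0. All 6 events of 1 line in this last list were iHoxc6-only (61.0 to 100%), an interval above the 50.6% over all such events but resting on 6 events.

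Axon guidance genes held 55 shared, 65 iHoxc6-only and 100 iHoxc9-only events, and 35 of the last lay within 50 kb of Unc5c, and without that gene the list held 61 iHoxc6-only and 65 iHoxc9-only events. With Unc5c 39.4% (32.3 to 47.0) of the events of 1 line were iHoxc6-only, against 50.6% over all such events, and without it the counts of 61 and 65 were close to equal. Of the 27 genes with an event of 1 line, 8 leaned to iHoxc6 and 12 to iHoxc9, among them Unc5c. Slit3, a ligand of Robo receptors, had 8 shared, 9 iHoxc6-only and 8 iHoxc9-only events, and the receptor gene Robo2 had 6, 6 and 5. Robo1 had 1, 2 and 6 and the netrin receptor gene Dcc 4, 3 and 6, whereas Epha4, an ephrin receptor gene of limb motor axons, had 4, 5 and 1. Ntn1, which encodes netrin-1, had 4 iHoxc6-only events and no other in the lists of equal length, while the full iHoxc9 list held 4 events there. A count near a gene does not say that the gene was regulated through the event.

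**Figure D5:**
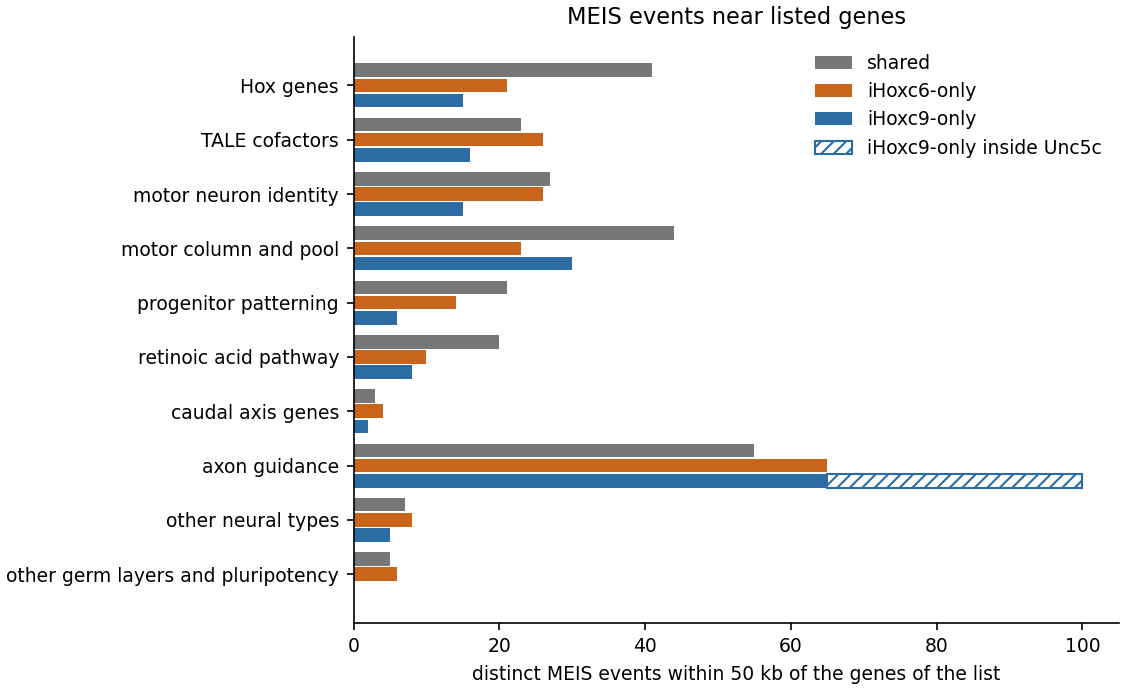
Distinct MEIS events within 50 kb of the genes of each list (x axis, number of events) by class, with the iHoxc9-only events inside Unc5c hatched. iHoxc6-only events outnumber iHoxc9-only events in 8 of the 10 lists, and the motor column and pool list (23 against 30) and the axon guidance list (65 against 100, of which 35 are at Unc5c) are the exceptions.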

How the data were processed

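MEIS was measured by ChIP-seq in 1 library of iHoxc6 and 1 of iHoxc9 cells at day 3. The authors aligned reads to mm10 with Bowtie (version 1.0.1, from the submitters' processing notes), keeping reads with 1 best hit, and called events with MultiGPS at a q-value under 0.001 against a control library. The deposited lists give for each event an estimated count of reads in the ChIP and control libraries, a log2 fold enrichment and a log2 q-value, treated here as a score that served only to rank or filter. Columns for the authors' edgeR comparisons (version 3.22.5) hold fold changes and q-values between conditions. They were not used, and in both MEIS lists they hold 1 constant placeholder.

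Events on chromosomes 1 to 19 and X were ranked by the estimated ChIP count. Leaving out events in Unc5c and Mcf2l and at Pgk1, leaving out close events, and keeping the upper ranks were alternatives chosen after seeing the data. All 16308 deposited sequences were found within 100 bp of their event on GRCm38. A TSS is the start of a protein-coding transcript in GENCODE M21 and a promoter is 1 kb to either side. Motifs were searched on both strands. Scripts used Python 3.11.15, NumPy 2.4.6, pandas 2.3.3 and SciPy 1.17.1, and were checked on simulated lists. The members, gene lists, motifs and comparisons were chosen with earlier results of these data known. Named genes were those with most events or the largest lean in each list, those nearest the 10 highest events of each class overall and at promoters, and the 5 genes with most iHoxc6-only and with most iHoxc9-only events. The iHoxc10 MEIS list and the Hox clusters served as comparison or summary. A further gene that the rule for named genes selects is not reported here.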

Additional observations from a re-analysis of the deposited data

Results flagged for a closer look

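Events on the mitochondrial chromosome were left out of every comparison. The iHoxc6 MEIS list held 65 of them, with 84.5 to 1238.6 ChIP reads against 25.7 to 296.3 control reads, and the iHoxc9 MEIS list held 42, with 81.7 to 601.9 against 54.7 to 284.0. They are named here because signal over the control library appears outside the chromosomes compared.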

How the results depend on the processing

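No paired analysis was possible because each line has 1 MEIS library. Of 92 recomputed values 52 moved by less than their interval, 39 moved by more and 1 reversed, and the causes were not tested. Only a difference between classes could count as reversed, so a share of events or genes could at most count as moved. The share of iHoxc6 events that were shared was 44.1% with the top 5000 of each list, 72.8% with full lists and also against the other line's full list, 43.8% at a q-value under 1e-05, 43.3% within 50 bp, 46.8% within 200 bp and 72.6% in ranks 1 to 2718. For iHoxc9 events it was 45.4% (top 5000), 26.8% (full lists), 45.1% (q-value), 43.4% (50 bp), 49.3% (200 bp), 63.4% (ranks 1 to 2718) and 45.0% without close events. The HOXC9 difference was 24.8 points (top 5000), 16.0 (full lists), 34.1 (other line's full list), 24.1 (q-value), 19.5 (HOX lists cut to 10000) and 35.2 (day 4). The HOXC6 difference was 40.7 (full lists), 37.9 (other line's full list), 32.3 (50 bp), 28.2 (HOX lists cut to 10000), 19.3 (day 4) and 47.3 (ranks 1 to 2718). The promoter difference reversed to -0.867 points with full lists, and was 0.327 against the other line's full list and 0.210 in ranks 1 to 2718. The TTTAT difference was 28.8 (top 5000), 22.7 (full lists), 28.4 (other line's full list), 20.5 within 25 bp, 22.7 within 100 bp, 17.5 for TTAT and 32.2 (ranks 1 to 2718). The share of listed genes leaning to iHoxc6 was 46.5% (top 5000), 5.65% (full lists), 28.7% (other line's full list) and 29.9% (ranks 1 to 2718). The rank and close-event choices were made after seeing the data. The depth and signal fraction of 1 library for each line limit all of these values, since a site missing from a list may hold MEIS below the calling threshold.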
